A study of Mus musculus with 8 samples.

Results

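MLL-AF9 cells and non-transduced (NT) cells with Ring1b present were compared in mouse bone marrow progenitors, with 1 mRNA library of each and so 2 of the 8 libraries in the series. All 10 counted Hoxa genes were at least 2-fold higher in the MLL-AF9 library than in the NT library, led by Hoxa11, Hoxa10, Hoxa3 and Hoxa2. At least 2-fold lower were 27 of 30 mast cell and basophil genes, 21 of 28 megakaryocyte genes, 20 of 28 inflammatory chemokines and cytokines and 13 of 19 red cell genes. The share of all counted transcripts that was at least 2-fold lower was 10.7%. Late neutrophil genes (16 of 33 lower) and macrophage genes (14 of 30 lower, 2 higher) were divided, and their medians were below 0 here but above 0 in a second pair of libraries, at 0.42 and 0.83. The chemokine and cytokine median was also above 0 in that pair, at 0.41, where 5 of the 20 were lower. Genes of mitosis, DNA replication and ribosome production lay close together in the 2 libraries. With 1 library a side there is no replicate and no test, so every difference below is a difference between these libraries, and its error covers counting alone.

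The MLL-AF9 cells were C57BL/6 lineage-negative bone marrow cells of the genotype Ring1b WT Ring1a-/- Cdkn2a-/-, transduced with MLL-AF9. The NT cells had the same strain and genotype, and their label for the transduced gene is none. Ring1a (gene symbol Ring1), a ubiquitin ligase of Polycomb, and Cdkn2a, the INK4A and ARF tumour suppressor locus, are thus labelled as deleted on both sides. The series also holds HOXA9 and PML-RARa cells, and a second set of 4 libraries treated with 4-hydroxytamoxifen (OHT) and labelled Ring1b KO. The protocol gives 72 h of ethanol or OHT, and the libraries without OHT in their titles, labelled Ring1b WT, are called control libraries. Lineage-negative means that cells with surface markers of mature blood cells were depleted with an enrichment kit, which leaves stem and progenitor cells together with early myeloid cells. The donors' age and number, the vector and the species of the MLL-AF9 coding sequence are not stated in the sources used here. The NT columns are headed with a word for empty, so whether these cells carried an empty vector is not known.

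MLL (gene symbol Kmt2a) is a histone methyltransferase that keeps HOX genes switched on in blood stem cells, and AF9 (Mllt3) is a subunit of complexes that drive transcription elongation. Their fusion occurs in acute leukaemias and is known to hold HOXA genes and the cofactor Meis1 at stem-cell levels in cells that would otherwise switch them off. Cultured progenitors that switch HOX genes off go on to form granulocytes, macrophages, mast cells and other mature cells.

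Transcripts with a normalised read count of at least 20 in the higher of the 2 libraries were counted, which was 10746 of 19353. Of these, 923 (8.59%) were at least 2-fold higher in MLL-AF9 cells and 1154 (10.7%) at least 2-fold lower, on a scale of log2(normalised read count + 1). At least 4-fold, the numbers were 324 higher and 591 lower. The median difference over all counted transcripts was -0.0057.

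**Figure D1:**
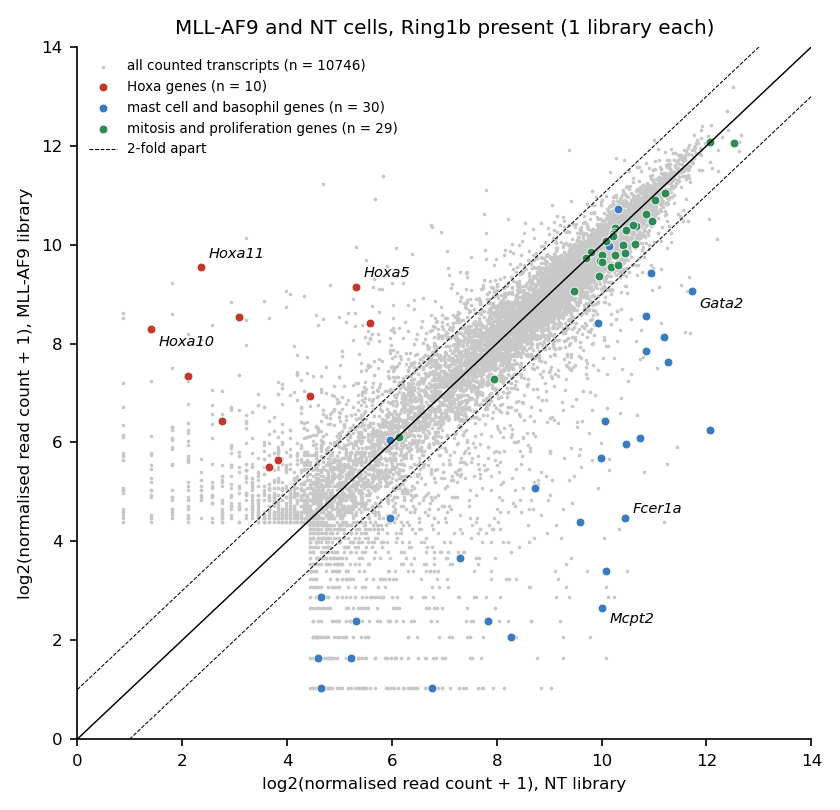
Each point is 1 of 10746 counted transcripts, with the log2(normalised read count + 1) of the NT library on the horizontal axis and of the MLL-AF9 library on the vertical axis, and dashed lines 2-fold from the diagonal. The 10 counted Hoxa genes (red) lie above the upper dashed line, 27 of 30 mast cell and basophil genes (blue) below the lower one, and the 29 mitosis genes (green) between them.

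The MLL-AF9 library held 5342836 reads and the NT library 6998223, in a range over the 8 libraries of 4226751 to 6998223. The 95% counting interval of 100 reads is 81.4 to 122, and intervals given with a difference are of the ratio of reads, by the exact binomial method. No correction for PCR copies was made here, and whether copies were removed before counting is not known. These intervals cover counting error alone and would be wider with any other error. The lowest entry in each library is 1 read, found at 18.2% of transcripts in MLL-AF9 cells and 16.45% in NT cells, and whether it stands for 0 or 1 read is not known. Reads at Rnf2, the gene of Ring1b, were 769.8 in MLL-AF9 cells and 666 in NT cells as normalised counts. Ring1 had 166 and 109 and Cdkn2a (NM_009877) 42.4 and 25.6 in the same order, so reads were present at both genes that the labels give as deleted.

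The introduced fusion could be looked for through its parent genes, as far as a mouse count can show it. Kmt2a (NM_001081049) stood at 1605 in MLL-AF9 cells, 907 in HOXA9 cells, 777 in PML-RARa cells and 1141 in NT cells, and the difference between MLL-AF9 and NT cells was 0.49 (95% interval 0.39 to 0.60). Mllt3 stood at 19.1 in MLL-AF9 cells, 105 in HOXA9 cells, 127 in PML-RARa cells and 57.9 in NT cells, a difference of -1.55 (-2.44 to -0.84). Kmt2a was highest in the MLL-AF9 library and Mllt3 lowest. The counts cover whole transcripts, so a part of either gene carried by the vector cannot be told apart from the cells' own. Among 26 counted genes of the MLL, DOT1L and elongation complexes, 0 were at least 2-fold higher. Lower were 2 (7.7%, against 10.7% of all counted transcripts). They were Mllt3 and Aff3, a scaffold of elongation complexes, at 90.0 in MLL-AF9 cells against 186 in NT cells.

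The Hoxa genes, which pattern the body axis and sustain stem cell renewal in blood, were higher in MLL-AF9 cells as a family. Of 11 Hoxa genes measured, 10 were counted and all 10 of these were at least 2-fold higher in MLL-AF9 cells, with a median log2 difference of 3.75. Summed over the family, the normalised counts were 2797.5 in MLL-AF9 cells, 802.0 in HOXA9 cells, 861 in PML-RARa cells and 155 in NT cells. The MLL-AF9 library was the highest of the 4 control libraries for 9 of the 10. The exception was Hoxa9, which was highest in the cells transduced with HOXA9.

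Hoxa11 (NM_010450), a posterior gene of the cluster known for limb and uterine development, had the largest Hoxa difference. Its normalised counts were 743 in MLL-AF9 cells, 246 in HOXA9 cells, 433 in PML-RARa cells and 4.14 in NT cells, a log2 difference of 7.18 (6.26 to 9.12). Reads of the antisense transcript Hoxa11os were at 292 in MLL-AF9 cells, 143 in HOXA9 cells, 319 in PML-RARa cells and 3.31 in NT cells, highest in PML-RARa cells and lowest in NT cells, and since the library kit does not mark the strand, reads of the 2 genes cannot be told apart where they overlap. Hoxa11 was also high in PML-RARa and HOXA9 cells, so NT is the library that stands apart.

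Hoxa10, which blocks differentiation when overexpressed in mouse marrow, counted 313 in MLL-AF9 cells, 18.3 in HOXA9 cells, 56.5 in PML-RARa cells and 1.66 in NT cells. The NT value rests on 2 reads, and its log2 difference was 6.89 (5.70 to 10.62). The anterior genes separated the MLL-AF9 library from all 3 others. Hoxa3 counted 368 in MLL-AF9 cells, 39.0 in HOXA9 cells, 49.8 in PML-RARa cells and 7.45 in NT cells, a difference of 5.45 (4.69 to 6.77). Hoxa2 counted 161 in MLL-AF9 cells, 18.3 in HOXA9 cells, 12.4 in PML-RARa cells and 3.31 in NT cells (5.23, 4.22 to 7.50). Hoxa5, a regulator of myeloid against erythroid fate, had 566 in MLL-AF9 cells, 63.9 in HOXA9 cells, 82.3 in PML-RARa cells and 38.9 in NT cells (3.83, 3.43 to 4.33). In each of these 3 genes the HOXA9 and PML-RARa values lie nearer to the NT value than to the MLL-AF9 value, and NT is lowest.

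Hoxa6 and Hoxa7 differed by 3.68 (2.78 to 5.25) and 2.84 (2.45 to 3.30), with 343 in MLL-AF9 cells, 106 in HOXA9 cells, 135 in PML-RARa cells and 47.2 in NT cells for Hoxa7. Hoxa9, the Hoxa gene most studied in leukaemia, counted 122 in MLL-AF9 cells, 249.9 in HOXA9 cells, 23.9 in PML-RARa cells and 20.7 in NT cells, so the MLL-AF9 value was 5.66 times the NT value on the value + 1 scale and lay under that of the HOXA9 cells. Hoxa4 differed by 1.85. Hoxa13 was not counted and had 1 read in MLL-AF9 cells and 1 in NT cells.

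In the OHT libraries, which share no library with the control pair, all 10 of these Hoxa genes were at least 2-fold higher in MLL-AF9 cells too, with a median of 2.95. There Hoxa11 counted 636 in the MLL-AF9 OHT library against 10.4 in the NT OHT library, Hoxa5 362 in the MLL-AF9 OHT library against 20.8 in the NT OHT library and Hoxa3 128 in the MLL-AF9 OHT library against 15.6 in the NT OHT library. The plot of the HOX genes by library shows both sets.

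**Figure D2:**
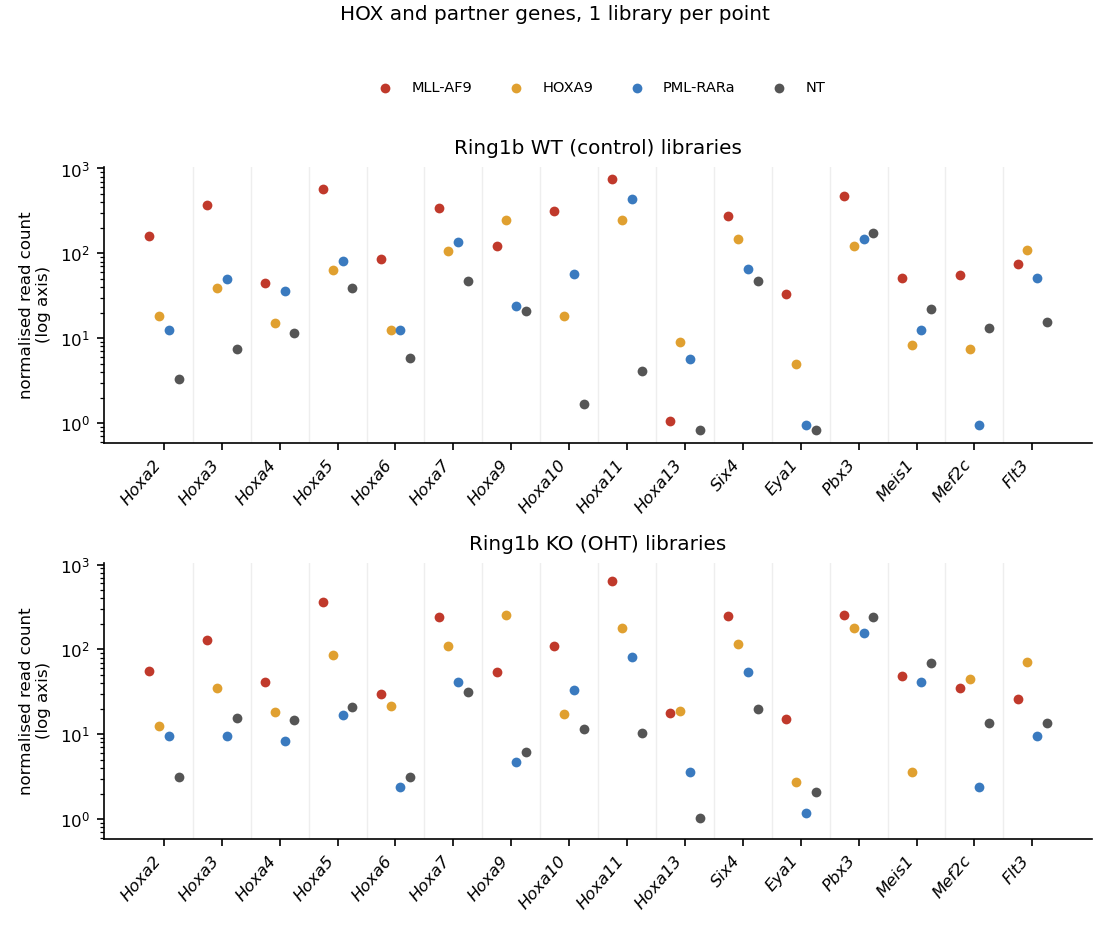
Normalised read count (log axis) of 10 Hoxa genes and 6 genes linked to them in the 4 control libraries (top) and the 4 OHT libraries (bottom), 1 point per library, with no error bar because each group has 1 library. In the control set MLL-AF9 (red) is the highest point for every gene except Hoxa9, Hoxa13 and Flt3, and NT (dark grey) is the lowest for the Hoxa genes.

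Genes of HOX partners and related factors were divided. Over the whole list of the HOX, MEIS and MLL-fusion programme, 37 of 40 measured members were counted, with a median of 1.65. At least 2-fold higher were 22 (59.5%) and lower 6 (16.2%), against 8.59% and 10.7% of all counted transcripts. Of the 22, 15 were at least 2-fold higher in the OHT pair as well, where the median of the list was 0.89, under 2-fold. Both the 22 and the 15 include the 10 counted Hoxa genes, which were higher in both pairs. Six4, a homeobox factor, counted 275 in MLL-AF9 cells, 147 in HOXA9 cells, 66.0 in PML-RARa cells and 47.2 in NT cells (2.52, 2.13 to 2.99). Eya1, a coactivator of homeobox factors of this family, had 31 reads in MLL-AF9 cells and 1 in NT cells (4.21, 2.73 to 10.66). Both genes were highest in the MLL-AF9 library of the 4.

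Pbx3, a cofactor that helps HOX proteins bind DNA, counted 470.1 in MLL-AF9 cells, 123 in HOXA9 cells, 146 in PML-RARa cells and 173 in NT cells (1.44, 1.20 to 1.69). Meis1, the cofactor most often named beside Hoxa9, had 51.9 in MLL-AF9 cells, 8.30 in HOXA9 cells, 12.4 in PML-RARa cells and 22.3 in NT cells (1.18, 0.51 to 1.95), on 49 and 27 reads. These 2 cofactors differed far less than the Hoxa genes did, and in the OHT libraries neither was 2-fold apart, at 0.07 and -0.49. Mef2c, a factor of lymphoid and myeloid progenitors, had 55.1 in MLL-AF9 cells against 13.2 in NT cells (1.98), and Flt3, a progenitor cytokine receptor, 75.2 in MLL-AF9 cells against 15.7 in NT cells (2.19, 1.51 to 3.07). Jmjd1c, Runx2 and Myb, all known as dependencies of MLL-fusion leukaemia, differed by 2.16, 2.10 and 1.04. Flt3 and Myb were not 2-fold higher in the OHT pair. Cdkn2c, an inhibitor of CDK4 and CDK6, was higher at 775 in MLL-AF9 cells, 68.1 in HOXA9 cells, 123 in PML-RARa cells and 246 in NT cells, and Mylk, myosin light chain kinase, at 1213 in MLL-AF9 cells against 223 in NT cells.

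The 6 programme members that were lower were Zfp521, Ikzf2, Id2, Cdh17, Il10ra and Mecom. Ikzf2, a zinc finger factor of the Ikaros family, counted 128 in MLL-AF9 cells, 1636 in HOXA9 cells, 2461 in PML-RARa cells and 874 in NT cells (-2.76, -3.05 to -2.50). Mecom, the EVI1 gene of stem cells, had 65.7 in MLL-AF9 cells, 0.830 in HOXA9 cells, 29.7 in PML-RARa cells and 171 in NT cells (-1.37, -1.82 to -0.97), and Zfp521 1.06 in MLL-AF9 cells against 64.5 in NT cells. Within 2-fold lay Cdk6 (0.84), Sox4 (0.50), Zeb2 (0.16), Bcl2 (-0.80) and Itga4 (-0.25). Hoxa10, Eya1, Runx2, Mef2c, Mecom and Jmjd1c have several RefSeq transcripts, and how reads were divided among these is not known. Outside the A cluster, 3 of 26 other Hox genes measured were counted. Hoxb13 was higher at 180.0 in MLL-AF9 cells, 42.3 in HOXA9 cells, 42.1 in PML-RARa cells and 2.48 in NT cells (5.70, 4.61 to 8.47), while Hoxb2 and Hoxb4 lay within 2-fold at 0.59 and -0.83.

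The promoters of 2 Hoxa genes and 2 mast cell genes are shown because the 2 groups differed in opposite directions. The mast cell promoters printed were picked because they hold the motif AGATAA, while those of Mcpt4 and Mcpt1, with larger differences, do not hold it. The Mcpt4 and Mcpt1 windows hold the similar TGATAA, which was not counted. The promoter window read for Hoxa10 holds no TGACAG. They run from 250 bases before to 50 after the start, from RefSeq on build GRCm38.p6 (the deposited tables use mm9), 5′ to 3′ on the gene's strand. Capitals mark TGACAG, bound by MEIS proteins, in the Hoxa promoters and AGATAA, bound by GATA factors, in the mast cell promoters, on either strand. The Hoxa11 promoter (chr6:52245761-52246060, minus strand) and that of Hoxa3 (chr6:52213018-52213317, minus strand) come first, then Fcer1a (chr1:173227180-173227479, minus strand) and 1 of 2 starts of Il1rl1 (chr1:40429320-40429619, plus strand).
Hoxa11: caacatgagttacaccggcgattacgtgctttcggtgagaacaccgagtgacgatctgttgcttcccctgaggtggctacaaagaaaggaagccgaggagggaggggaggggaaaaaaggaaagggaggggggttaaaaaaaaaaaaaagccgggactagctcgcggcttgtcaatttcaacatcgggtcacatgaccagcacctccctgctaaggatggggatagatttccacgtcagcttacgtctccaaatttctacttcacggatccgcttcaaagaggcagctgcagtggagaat
Hoxa3: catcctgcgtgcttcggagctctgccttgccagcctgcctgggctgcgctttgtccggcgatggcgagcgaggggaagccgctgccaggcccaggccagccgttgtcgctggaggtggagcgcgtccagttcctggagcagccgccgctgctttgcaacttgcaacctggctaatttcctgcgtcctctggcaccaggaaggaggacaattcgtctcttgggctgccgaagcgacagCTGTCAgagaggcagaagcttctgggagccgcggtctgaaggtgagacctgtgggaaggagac
Fcer1a: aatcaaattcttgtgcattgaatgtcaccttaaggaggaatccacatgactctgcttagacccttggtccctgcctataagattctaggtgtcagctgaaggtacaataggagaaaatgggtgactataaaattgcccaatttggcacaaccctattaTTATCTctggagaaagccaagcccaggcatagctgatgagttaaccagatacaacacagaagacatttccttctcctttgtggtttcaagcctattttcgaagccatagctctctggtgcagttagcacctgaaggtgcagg
Il1rl1: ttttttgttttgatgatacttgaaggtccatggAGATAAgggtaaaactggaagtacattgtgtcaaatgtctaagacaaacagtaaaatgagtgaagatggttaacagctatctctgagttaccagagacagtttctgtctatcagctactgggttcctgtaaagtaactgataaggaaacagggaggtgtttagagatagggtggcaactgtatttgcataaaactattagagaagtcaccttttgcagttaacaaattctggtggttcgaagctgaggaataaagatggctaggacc
The Hoxa11 window holds neither TGACAG nor TGATNNAT, a composite of HOX and PBX. AGATAA was found in 8 of 28 mast cell and basophil promoters (28.6%) and 0 of 10 Hoxa promoters, against 11.2% of all 32851 promoters of this length. The 28 promoters belong to 24 genes, where 30 genes of that list were counted, so they are not all separate genes. TGACAG was in 2 of 10 Hoxa promoters, against 19.2% of all, and TGATNNAT in 1 of 10, against 8.85%. Matches on both strands were counted, and no motif overlaps another in the promoters printed. The median number of CG pairs per promoter was 17.5 for the Hoxa genes, 3.0 for the mast cell and basophil genes and 7.0 for all. These letters describe the windows and say nothing of what binds there.

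Mast cell and basophil genes had the lowest median of the 46 gene lists. Of 34 measured, 30 were counted, 27 of them at least 2-fold lower and 0 higher, with a median of -3.62. The list summed to 5900.0 in MLL-AF9 cells, 8773.7 in HOXA9 cells, 31930.9 in PML-RARa cells and 32498.0 in NT cells. All 27 were at least 2-fold lower in the OHT pair too, where 13.3% of 10888 counted transcripts were. In bulk RNA, fewer cells of a type and less RNA per cell cannot be told apart.

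Fcer1a, the IgE-binding chain of the high-affinity IgE receptor, counted 21.2 in MLL-AF9 cells, 33.2 in HOXA9 cells, 1162 in PML-RARa cells and 1388 in NT cells, a difference of -5.97 (-6.75 to -5.40). Its beta chain Ms4a2 had 11.6 in MLL-AF9 cells, 8.30 in HOXA9 cells, 82.3 in PML-RARa cells and 156 in NT cells (-3.64). Il1rl1, the receptor for the alarmin IL-33, counted 75.2 in MLL-AF9 cells, 219 in HOXA9 cells, 3178 in PML-RARa cells and 4273 in NT cells (-5.81, -6.19 to -5.49). For these 3 receptor genes the MLL-AF9 and HOXA9 libraries lay together at the low end, and the PML-RARa and NT libraries together at the high end.

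The granule proteases showed the same split of the libraries. Mcpt2 counted 5.29 in MLL-AF9 cells, 2.49 in HOXA9 cells, 337 in PML-RARa cells and 1031 in NT cells (-7.36, -9.23 to -6.38), Mcpt4 9.53 in MLL-AF9 cells, 9.13 in HOXA9 cells, 939 in PML-RARa cells and 1078 in NT cells (-6.68, -7.95 to -5.89) and Mcpt1 3.18 in MLL-AF9 cells against 307 in NT cells (-6.20). Mast cell protease genes are near-identical in stretches, so the split of reads among them is uncertain, although each was lower. Tpsg1, a membrane-anchored tryptase that is not on the list, had 6.35 in MLL-AF9 cells, 31.5 in HOXA9 cells, 514 in PML-RARa cells and 1110.3 in NT cells (-7.24). Cpa3, the carboxypeptidase that marks mast cells and basophils, kept 281 in MLL-AF9 cells against 2321 in NT cells (-3.04), and reached 1.96 reads per base, where counts level off. Of the counted members, Tpsab1 and Rab27b were at the lowest entry of 1 read in MLL-AF9 cells, and the other defining markers were above it.

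Several signalling genes and factors of these cells were among the lower ones. Lat, an adaptor of the IgE receptor, counted 50.8 in MLL-AF9 cells, 162 in HOXA9 cells, 530.1 in PML-RARa cells and 1017 in NT cells (-4.30, -4.77 to -3.91). Gzmb, a granule protease of mast cells and cytotoxic lymphocytes, had 229.8 in MLL-AF9 cells against 1846 in NT cells, and Il6, an inflammatory cytokine, 32.8 in MLL-AF9 cells against 424 in NT cells (-3.65). Gata2, a factor that mast cells, basophils and stem cells need, counted 536 in MLL-AF9 cells, 1129 in HOXA9 cells, 3765 in PML-RARa cells and 3379 in NT cells (-2.65, -2.79 to -2.52). Its relative Gata1 counted 58.2 in MLL-AF9 cells, 62.3 in HOXA9 cells, 539 in PML-RARa cells and 680.1 in NT cells (-3.52, -3.97 to -3.15), and their partner Tal1 308 in MLL-AF9 cells, 896 in HOXA9 cells, 1318 in PML-RARa cells and 1719 in NT cells (-2.48). Each of the 3 factors was lowest in the MLL-AF9 library. Ctsg, Osm and Cd63 were the members within 2-fold, and Ctsg also belongs to neutrophil granules.

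Megakaryocyte and platelet genes followed. Of 34 measured, 28 were counted, with 21 lower, 0 higher and a median of -3.08, and 18 of the 21 were lower in the OHT pair as well. Itga2b and Itgb3, the subunits of the platelet fibrinogen receptor, counted 301 in MLL-AF9 cells, 857 in HOXA9 cells, 3435 in PML-RARa cells and 3064 in NT cells (-3.34, -3.53 to -3.17) and 179 in MLL-AF9 cells, 971 in HOXA9 cells, 2009 in PML-RARa cells and 1340.3 in NT cells (-2.90). Gp5, a subunit of the von Willebrand factor receptor, had 8.47 in MLL-AF9 cells, 38.2 in HOXA9 cells, 185 in PML-RARa cells and 299 in NT cells (-4.99, -6.37 to -4.15). Both integrin subunits are also expressed in mast cells and early progenitors, and both were lowest in MLL-AF9 cells.

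Ppbp, a platelet chemokine, counted 11.6 in MLL-AF9 cells, 118 in HOXA9 cells, 26.8 in PML-RARa cells and 678 in NT cells (-5.75, -6.87 to -5.02), and Treml1, a platelet granule receptor, 2.12 in MLL-AF9 cells against 109 in NT cells (-5.14). Tubb1, the platelet tubulin, had 1 read in MLL-AF9 cells and 37 in NT cells. For these 3 platelet genes the NT library was the high one and the PML-RARa library lay at or under the HOXA9 library, unlike for the mast cell genes. Thbs1, a matrix glycoprotein stored in platelet granules and made by many cells, lay within 2-fold at 9338 in MLL-AF9 cells against 5821 in NT cells.

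Of 30 red cell genes measured, 19 were counted, 13 lower and 0 higher (median -1.41), and 9 of the 13 were lower in the OHT pair. Aqp1, a water channel, had 6.35 in MLL-AF9 cells, 4.15 in HOXA9 cells, 2.87 in PML-RARa cells and 47.2 in NT cells (-2.71). Kel and Icam4 differed by -2.25 and -2.81. Alas2, the haem synthesis enzyme of red cells, was near the lowest entry in both libraries.

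**Figure D3:**
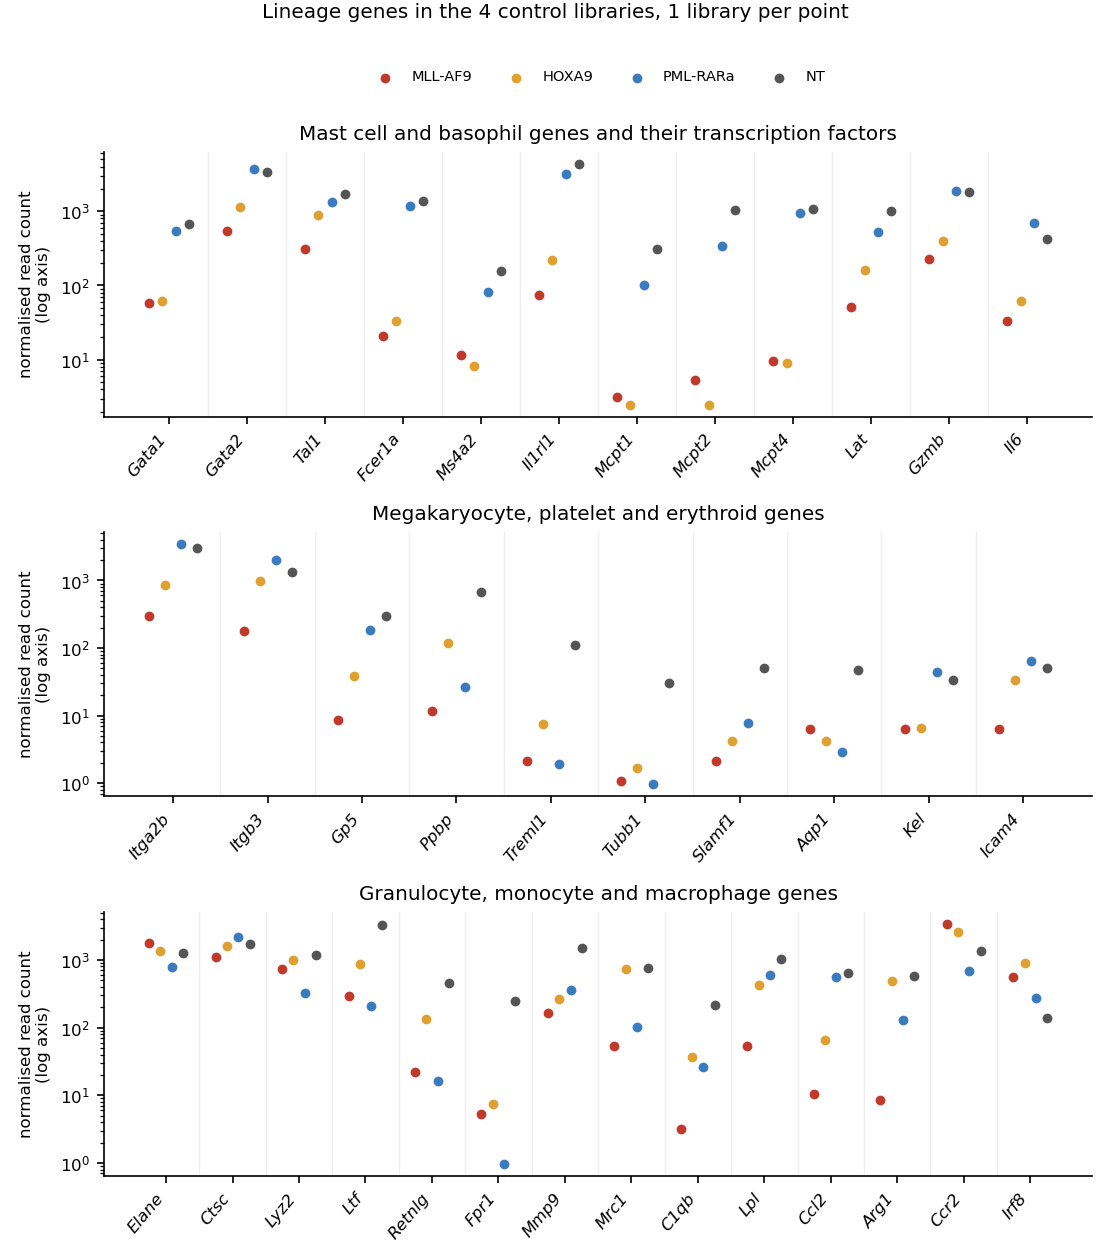
Normalised read count (log axis) of lineage genes in the 4 control libraries, 1 point per library and no error bars because each group has 1 library. Mast cell genes (top) are low in MLL-AF9 and HOXA9 and high in PML-RARa and NT, while the platelet genes Ppbp, Treml1 and Tubb1 (middle) and the late neutrophil genes Ltf, Retnlg and Fpr1 (bottom) are highest in NT.

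Neutrophil genes divided by stage in the control pair. Primary granule genes, made at the promyelocyte stage, had 2 of 19 counted members lower, 0 higher and a median of 0.16. The lower share was 10.5%, near the 10.7% of all counted transcripts. The list median was 1.33 in the OHT pair, where 0 of the 2 were lower. Over the 4 counted members with at most 0.5 reads per base the median was -0.58, so the closeness of this list rests on transcripts whose ratios can be compressed. Elane, neutrophil elastase, counted 1776 in MLL-AF9 cells, 1334 in HOXA9 cells, 789 in PML-RARa cells and 1272 in NT cells (0.48), and Mpo, myeloperoxidase, 4588 in MLL-AF9 cells against 3801 in NT cells (0.27). The lower ones were Clec5a, a receptor, at 8.47 in MLL-AF9 cells against 33.9 in NT cells, and Fcnb, ficolin B, at 359 in MLL-AF9 cells against 900.1 in NT cells (-1.32, -1.51 to -1.15). Elane and Mpo reached 1.70 and 1.67 reads per base, where counts level off.

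Late granule and maturation genes had 16 of 33 counted members lower (48.5%) and 0 higher, with a median of -0.94. Over the 7 counted members with at most 0.5 reads per base the median was -2.36. Ltf, lactoferrin of the secondary granules, counted 294 in MLL-AF9 cells, 863 in HOXA9 cells, 206 in PML-RARa cells and 3289 in NT cells (-3.48, -3.66 to -3.31). Fpr1, a receptor for bacterial peptides, had 5.29 in MLL-AF9 cells, 7.47 in HOXA9 cells, 0.957 in PML-RARa cells and 249 in NT cells (-5.31, -7.19 to -4.32), and Retnlg, a secreted resistin-like protein, 22.2 in MLL-AF9 cells, 132 in HOXA9 cells, 16.3 in PML-RARa cells and 460.0 in NT cells (-4.31). Mmp9, gelatinase B, counted 166 in MLL-AF9 cells, 263 in HOXA9 cells, 354 in PML-RARa cells and 1519 in NT cells (-3.18). The NT library was the highest of the 4 for each. Camp, Ngp and S100a8, also granule genes, were close at -0.10, 0.07 and -0.09, so not every late gene was 2-fold apart. Ratios of very abundant transcripts can be compressed, so closeness in this list need not mean equal levels. Of the 16 lower genes, 2 were also 2-fold lower in the OHT pair, where the median of the list was 0.42.

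Eosinophil genes had 5 of 11 counted members lower (45.5%, against 10.7% of all counted transcripts) and 0 higher, with a median of -0.94. Of the 5, 3 were also 2-fold lower in the OHT pair, where the list median was 0.35. Alox15, a lipoxygenase of eosinophils and macrophages, counted 5.29 in MLL-AF9 cells, 14.9 in HOXA9 cells, 453 in PML-RARa cells and 122 in NT cells (-4.29, -6.18 to -3.28), and Alox5, which starts leukotriene synthesis, 537 in MLL-AF9 cells, 802 in HOXA9 cells, 3249.5 in PML-RARa cells and 3170.3 in NT cells (-2.56).

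Monocyte and macrophage genes had 14 of 30 counted members lower (46.7%) and 2 higher (6.7%), with a median of -0.65. The shares of all counted transcripts were 10.7% and 8.59%. Of the 14, 2 were also 2-fold lower in the OHT pair, and both higher members were higher there. The C1q genes, which encode the chains of the first complement component and are made by tissue macrophages, were among the lowest. C1qb counted 3.18 in MLL-AF9 cells, 36.5 in HOXA9 cells, 25.8 in PML-RARa cells and 213 in NT cells (-5.68, -8.36 to -4.51), and C1qa and C1qc had 1 read each in MLL-AF9 cells against 98.5 and 123 in NT cells. Mrc1, the mannose receptor, counted 52.9 in MLL-AF9 cells, 729.8 in HOXA9 cells, 101 in PML-RARa cells and 761 in NT cells (-3.82, -4.29 to -3.43), and Lpl, lipoprotein lipase, 52.9 in MLL-AF9 cells, 431 in HOXA9 cells, 595 in PML-RARa cells and 1023 in NT cells (-4.25). Cx3cr1, the fractalkine receptor, had 6.35 in MLL-AF9 cells against 222 in NT cells (-4.92). Mrc1, Lpl and C1qb were lowest in the MLL-AF9 library, and Cx3cr1 was as low in HOXA9 cells, at 4.98.

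The 2 higher members were Ccr2, the receptor that draws inflammatory monocytes, at 3378 in MLL-AF9 cells, 2552 in HOXA9 cells, 689.9 in PML-RARa cells and 1375 in NT cells (1.30, 1.21 to 1.38), and Vcam1, an adhesion molecule of marrow macrophages and stroma, at 737 in MLL-AF9 cells, 797 in HOXA9 cells, 33.5 in PML-RARa cells and 134 in NT cells (2.45). Irf8, the factor that directs progenitors to monocytes and dendritic cells, was higher as well, with 560.1 in MLL-AF9 cells, 892 in HOXA9 cells, 269.8 in PML-RARa cells and 138 in NT cells (2.01, 1.77 to 2.28). The factor Maf, which marks mature macrophages, was lower, with 5.29 in MLL-AF9 cells, 179 in HOXA9 cells, 33.5 in PML-RARa cells and 172 in NT cells (-4.78). Among 27 counted myeloid factors 1 was higher (3.7%) and 7 lower (25.9%, against 10.7% of all counted transcripts). Of the 7, 0 were also 2-fold lower in the OHT pair. Cebpa and Spi1, the main factors of granulocytes and monocytes, lay within 2-fold at 0.58 and 0.13.

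Of 14 counted genes of dendritic cells and MHC class II, 4 were higher (28.6%) and 6 lower (42.9%), against 8.59% and 10.7% of all counted transcripts. None of these was 2-fold apart in the same direction in the OHT pair, where the list median was 0.62. H2-Aa, a chain of the antigen-presenting molecule, had 11.6 in MLL-AF9 cells against 111 in NT cells (-3.14) and H2-Eb1 4.24 in MLL-AF9 cells against 72.8 in NT cells (-3.82), but H2-Ob, a brake on peptide loading, was higher at 346 in MLL-AF9 cells, 543 in HOXA9 cells, 69.9 in PML-RARa cells and 33.9 in NT cells (3.31, 2.88 to 3.86). MHC class I and processing genes had 0 of 16 counted members 2-fold apart.

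Chemokines and inflammatory cytokines had 20 of 28 counted members lower and 0 higher, with a median of -1.98. Ccl2, which recruits monocytes, counted 10.6 in MLL-AF9 cells, 66.4 in HOXA9 cells, 553 in PML-RARa cells and 637 in NT cells (-5.78, -6.98 to -5.02), and Ccl7, which acts on the same receptor, 3.18 in MLL-AF9 cells, 31.5 in HOXA9 cells, 164 in PML-RARa cells and 179 in NT cells (-5.43). Arg1, the arginase of alternatively activated macrophages and mast cells, had 8.47 in MLL-AF9 cells, 488 in HOXA9 cells, 131 in PML-RARa cells and 573 in NT cells (-5.92, -7.30 to -5.09), and Ccl8 1 read in MLL-AF9 cells against 99 in NT cells. MLL-AF9 was the lowest of the 4 control libraries for 21 of the 28. In the OHT pair 5 of the 20 were also 2-fold lower, and the median of the list there was 0.41. The summed macrophage list was 14956.5 in MLL-AF9 cells and 18127.4 in NT cells, and the part of macrophage content in the chemokine values was not tested.

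**Figure D4:**
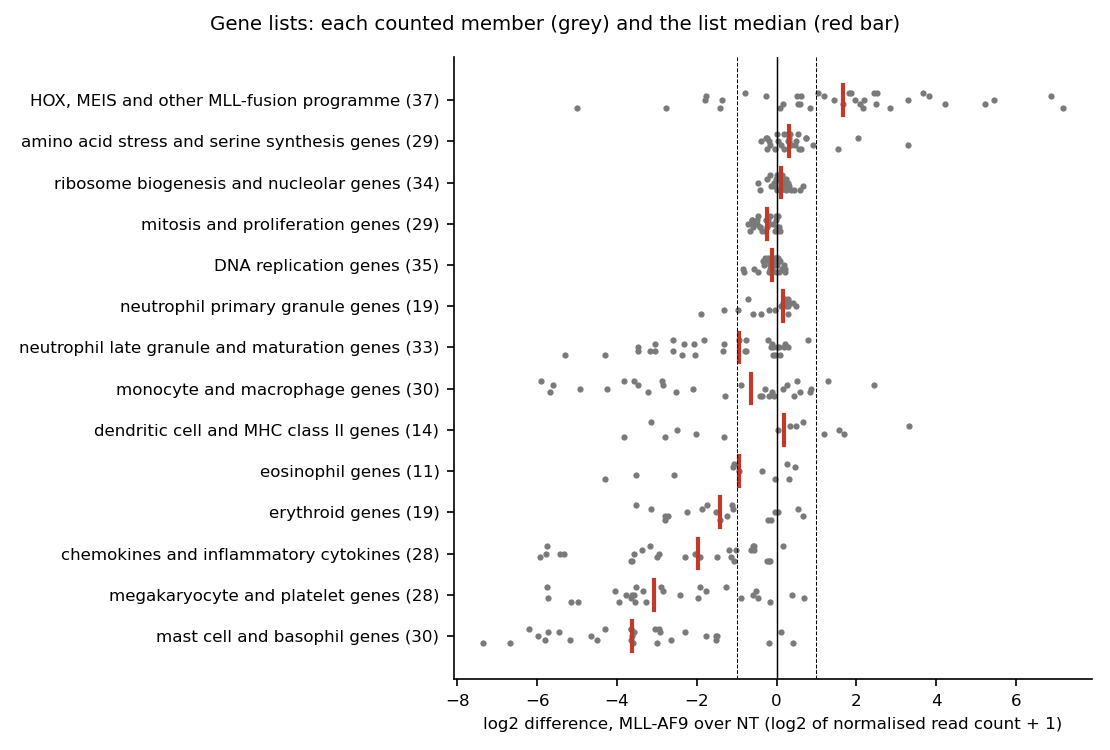
Each grey point is the log2 difference (MLL-AF9 over NT, log2 of normalised read count + 1) of a counted list member, the red bar is the list median, dashed lines mark 2-fold, and the number of counted members stands in brackets. The HOX list has its median at 1.65 and the mast cell list at -3.62, while all mitosis, replication and ribosome genes lie between the dashed lines.

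Genes of stem and progenitor cells were lower more often than higher. Among 27 counted transcription factors 1 was higher and 11 lower (40.7%). Among 15 counted surface and cytoplasmic markers 2 were higher and 9 lower (60.0%), against 10.7% lower of all counted transcripts. In the OHT pair 8 of the 11 and 8 of the 9 were lower too, and the list medians there were -0.68 and -1.50. None of the higher members of these lists was 2-fold higher in that pair. Cd34, a progenitor surface marker, counted 10.6 in MLL-AF9 cells, 59.8 in HOXA9 cells, 83.2 in PML-RARa cells and 96.8 in NT cells (-3.08, -4.29 to -2.26), and Slamf1, a stem cell receptor also found on mast cells and platelets, 2.12 in MLL-AF9 cells, 4.15 in HOXA9 cells, 7.66 in PML-RARa cells and 50.5 in NT cells (-4.05). Kit was measured on 6 and 29 reads. Hes1, a Notch target, had 11.6 in MLL-AF9 cells, 15.8 in HOXA9 cells, 131 in PML-RARa cells and 251 in NT cells (-4.31), Gata3 3.18 in MLL-AF9 cells against 45.5 in NT cells (-3.48) and Id3, an inhibitor of helix-loop-helix factors, 20.1 in MLL-AF9 cells against 129.9 in NT cells (-2.63). Thy1 and Flt3 were the higher surface markers, with 1398 in MLL-AF9 cells, 1542 in HOXA9 cells, 1905 in PML-RARa cells and 547 in NT cells (1.35) for Thy1.

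Cytokine receptors had 11 of 31 counted members lower (35.5%) and 2 higher (6.5%), against 10.7% and 8.59% of all counted transcripts. The higher ones were Flt3 and Il13ra1. Of the 11, 5 were also 2-fold lower in the OHT pair, and 1 of the 2 was higher there. The list median was 0.315 in that pair and -0.58 in the control pair. Il7r, the receptor of early lymphoid cells, had 9.53 in MLL-AF9 cells against 105 in NT cells (-3.33), Il18r1 43.4 in MLL-AF9 cells against 328 in NT cells (-2.89) and Csf2rb2, the beta chain of the mouse IL-3 receptor, 1111 in MLL-AF9 cells against 4734 in NT cells (-2.09). Cd180, a TLR4-like receptor of B cells and macrophages, had 19.1 in MLL-AF9 cells against 230.0 in NT cells (-3.53).

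Growth and division genes were close in the 2 libraries. None of 29 counted mitosis genes, 35 replication genes and 34 ribosome biogenesis genes was 2-fold apart, with medians of -0.23, -0.13 and 0.10. By any amount, 23 of the 29 mitosis genes were lower. With at most 0.5 reads per base there were 12, 22 and 18 genes in the same order. None of them was 2-fold apart, and the medians were -0.45, -0.17 and 0.07. Birc5, survivin, differed by -0.66, Plk1 by -0.61, Mki67 by -0.48 and Orc1, a subunit of the replication origin complex, by -0.84. Nop56 and Ppan, of ribosome assembly, differed by 0.37 and 0.57. In the Myc network Mlxipl, a glucose-sensing factor, was higher at 108 in MLL-AF9 cells against 9.93 in NT cells, and Mxd3 and Mycn were lower, with 76.2 in MLL-AF9 cells against 261 in NT cells for Mycn.

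Amino acid stress genes had 3 of 29 counted members higher (10.3%, against 8.59% of all counted transcripts) and 0 lower, so the share of higher members is near that of all transcripts. Cth, which makes cysteine from cystathionine, counted 739 in MLL-AF9 cells, 45.7 in HOXA9 cells, 55.5 in PML-RARa cells and 74.5 in NT cells (3.29, 2.99 to 3.64). Aldh1l2, of mitochondrial folate metabolism, had 173 in MLL-AF9 cells, 69.7 in HOXA9 cells, 191 in PML-RARa cells and 41.4 in NT cells (2.03), and Trib3, a stress-induced pseudokinase, 619 in MLL-AF9 cells, 177 in HOXA9 cells, 256 in PML-RARa cells and 214 in NT cells (1.53). Cth and Trib3 were highest in the MLL-AF9 library, and Aldh1l2 in the PML-RARa library. In cholesterol and lipid synthesis 1 of 31 was higher and 3 were lower, namely Fads2, Lss and Scd1. The lower share was 9.7%, against 10.7% of all counted transcripts.

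Fetal growth genes included some of the abundant higher transcripts. Igf2bp3, an RNA-binding protein of fetal cells, counted 1318 in MLL-AF9 cells, 988 in HOXA9 cells, 1023 in PML-RARa cells and 108 in NT cells (3.59, 3.34 to 3.88). Lin28b, which blocks let-7 processing in fetal progenitors, had 346 in MLL-AF9 cells, 153 in HOXA9 cells, 6.70 in PML-RARa cells and 75.3 in NT cells (2.19, 1.86 to 2.55), and Igf2r, the receptor that clears IGF2, 1579.8 in MLL-AF9 cells, 2334 in HOXA9 cells, 1854 in PML-RARa cells and 217 in NT cells (2.86). The other higher member was the imprinted RNA Meg3, at 49.8 in MLL-AF9 cells against 4.14 in NT cells. Hmga2, a chromatin protein of fetal stem cells, was lower at 90.0 in MLL-AF9 cells against 194 in NT cells (-1.10), and the imprinted RNA H19 had 1 read in MLL-AF9 cells against 165 in NT cells. Igf2bp3 and Igf2r were high in all 3 transduced libraries, whereas Lin28b was highest in MLL-AF9 cells.

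Within 2-fold lay 83.3% of PRC1 genes and 92.3% of PRC2 genes of Polycomb, against 80.7% of all counted transcripts. Of 18 counted PRC1 genes, Cbx7 (354 in MLL-AF9 cells against 156 in NT cells) and Yaf2 were higher and Auts2 lower, and of 13 PRC2 genes Jarid2 was higher at 47.6 in MLL-AF9 cells against 22.3 in NT cells. None of 10 counted DNA methylation genes was 2-fold apart. Among 25 counted p53 targets, Tigar (listed as 9630033F20Rik) and Pmaip1 were higher, with 1308 in MLL-AF9 cells against 621 in NT cells for Pmaip1, and Plk2 and Perp lower. That is 8.0% each way, near the 8.59% higher and 10.7% lower of all counted transcripts.

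Developmental transcription factors outside blood were mostly near silent in both libraries, with 4 of 58 measured members counted. Irx5, an Iroquois homeobox gene, counted 364 in MLL-AF9 cells, 131 in HOXA9 cells, 241 in PML-RARa cells and 0.827 in NT cells (7.64, 6.29 to 14.09), and Pax8, of thyroid and kidney, 367 in MLL-AF9 cells, 49.0 in HOXA9 cells, 27.7 in PML-RARa cells and 11.6 in NT cells (4.87, 4.22 to 5.87). Tbx15 had 33.9 in MLL-AF9 cells, 178 in HOXA9 cells, 322 in PML-RARa cells and 4.14 in NT cells (2.76), and Emx2 was the lower one, with 1 read in MLL-AF9 cells. Sp9, a zinc finger factor of limb and forebrain, is not on that list and was among the largest differences, at 600.4 in MLL-AF9 cells, 105 in HOXA9 cells, 105 in PML-RARa cells and 2.48 in NT cells (7.43, 6.36 to 10.20). For Irx5 and Sp9, as for Hoxa11, the NT library is near the lowest entry and the other 3 are all higher.

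The single largest higher value was Tgfb2, a TGF-beta ligand, at 391 in MLL-AF9 cells, 897 in HOXA9 cells, 25.8 in PML-RARa cells and 0.827 in NT cells (7.74, 6.40 to 14.19), which was still higher in HOXA9 cells. Its NT value is the lowest entry of 1 read, as for 7 of the 25 largest higher differences, where the size depends on the pseudocount. Tgfb3 counted 147 in MLL-AF9 cells, 120.4 in HOXA9 cells, 4.78 in PML-RARa cells and 0.827 in NT cells (6.34, 4.97 to 12.79) and the co-receptor Tgfbr3 (betaglycan) 981 in MLL-AF9 cells, 1423 in HOXA9 cells, 805 in PML-RARa cells and 66.2 in NT cells (3.87, 3.56 to 4.24). The ligands and their co-receptor were thus high in MLL-AF9 and HOXA9 cells, and Tgfbr3 also in PML-RARa cells.

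Among abundant transcripts, Hpgd, which inactivates prostaglandins, counted 2407 in MLL-AF9 cells, 955 in HOXA9 cells, 21.1 in PML-RARa cells and 24.8 in NT cells (6.54, 6.08 to 7.17), and Cgnl1, a junction protein, 2677 in MLL-AF9 cells, 1581 in HOXA9 cells, 349 in PML-RARa cells and 56.3 in NT cells (5.55). Car4, a membrane carbonic anhydrase, had 995 in MLL-AF9 cells, 1270.2 in HOXA9 cells, 263 in PML-RARa cells and 38.9 in NT cells (4.64). Hnmt, which inactivates histamine, had 552 in MLL-AF9 cells, 242 in HOXA9 cells, 7.66 in PML-RARa cells and 52.9 in NT cells (3.36), while Hdc, which makes histamine and marks basophils and mast cells, was lower at 688 in MLL-AF9 cells, 865 in HOXA9 cells, 3069.7 in PML-RARa cells and 1976 in NT cells (-1.52). Ces1d, a carboxylesterase, was highest in MLL-AF9 cells at 511 in MLL-AF9 cells, 55.6 in HOXA9 cells, 12.4 in PML-RARa cells and 15.7 in NT cells (4.94), as was Gcnt4, a glycan-branching enzyme, at 1128 in MLL-AF9 cells, 261 in HOXA9 cells, 305 in PML-RARa cells and 8.27 in NT cells (6.93, 6.21 to 8.16). Adm, the peptide hormone adrenomedullin, was high in all 3 transduced libraries at 269 in MLL-AF9 cells, 318 in HOXA9 cells, 261 in PML-RARa cells and 4.14 in NT cells (5.72). Of the 25 largest higher differences, 23 were at least 2-fold higher in the OHT pair, where 9.03% of 10888 counted transcripts were. MLL-AF9 was the highest of the 4 control libraries for 20. Choosing genes by their difference from NT favours a high MLL-AF9 value, so that 20 is in part fixed by the choice.

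Retinoid genes had 2 of 12 counted members higher (16.7%) and 4 lower (33.3%), against 8.59% and 10.7% of all counted transcripts. Cyp26a1, which degrades retinoic acid, counted 368 in MLL-AF9 cells, 504 in HOXA9 cells, 0.957 in PML-RARa cells and 30.6 in NT cells (3.55, 3.10 to 4.12), and Tgm2, a transglutaminase that retinoic acid induces, 3863 in MLL-AF9 cells, 3769 in HOXA9 cells, 1918 in PML-RARa cells and 662 in NT cells (2.54, 2.43 to 2.66). Asb2 and Rarres1, which retinoids also induce, were lower at 14.8 in MLL-AF9 cells against 298 in NT cells and 3.18 in MLL-AF9 cells against 135 in NT cells.

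The largest lower values belonged to genes that were also low in HOXA9 cells. Grm6, a glutamate receptor of the retina, counted 2.12 in MLL-AF9 cells, 4.15 in HOXA9 cells, 69.9 in PML-RARa cells and 1085 in NT cells (-8.44, -12.05 to -7.14), and Maob, monoamine oxidase B, 4.24 in MLL-AF9 cells, 5.81 in HOXA9 cells, 498 in PML-RARa cells and 1697 in NT cells (-8.34, -10.52 to -7.29). Cadm3 and Gnai1, a cell adhesion molecule and a G protein subunit, had 1 read each in MLL-AF9 cells against 520.4 and 461 in NT cells. Bmp7, a growth factor of the BMP family, counted 3.18 in MLL-AF9 cells, 3.32 in HOXA9 cells, 272 in PML-RARa cells and 613 in NT cells (-7.20), and Igfbp5, which binds insulin-like growth factors, 20.1 in MLL-AF9 cells, 29.9 in HOXA9 cells, 2596 in PML-RARa cells and 2333 in NT cells (-6.79, -7.59 to -6.21). All 25 of these largest lower differences were at least 2-fold lower in the OHT pair, where 13.3% of 10888 counted transcripts were. MLL-AF9 was the lowest of the 4 control libraries for 17 and HOXA9 for the other 8. Choosing genes by their difference from NT favours a low MLL-AF9 value, so that 17 is in part fixed by the choice. Of these 25 genes, 9 were at the lowest entry of 1 read in MLL-AF9 cells, where the size depends on the pseudocount. The mast cell list, summing to 5900.0 in MLL-AF9 cells and 32498.0 in NT cells, moves with these genes, and its part in them was not tested.

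Setting the control and OHT pairs side by side, 10101 transcripts were counted in both. Of those at least 2-fold higher in MLL-AF9 cells, 306 were so in both pairs, which is 41.4% of the OHT and 42.3% of the control set. Of the lower ones, 636 were lower in both, or 54.0% of the OHT and 58.4% of the control set. In opposite directions went 27 of the higher and 69 of the lower transcripts of the control pair.
The rule names 327 counted genes, partly for large differences in the control pair. Among those reported here, 16 were at least 2-fold apart in both pairs but in opposite directions, and that difference between the pairs was not tested. Lpl counted 7367 in the MLL-AF9 OHT library against 3505 in the NT OHT library (1.07), where its difference in the control pair was -4.25. Fcgr1, an antibody receptor of macrophages, counted 1052 in the MLL-AF9 OHT library against 279 in the NT OHT library (1.91) and 10.6 in MLL-AF9 cells against 137 in NT cells in the control pair (-3.58). Megf10, an engulfment receptor, went the other way, with 6.82 in the MLL-AF9 OHT library against 29.1 in the NT OHT library (-1.94) and 357 in MLL-AF9 cells against 8.27 in NT cells in the control pair (5.27).

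**Figure D5:**
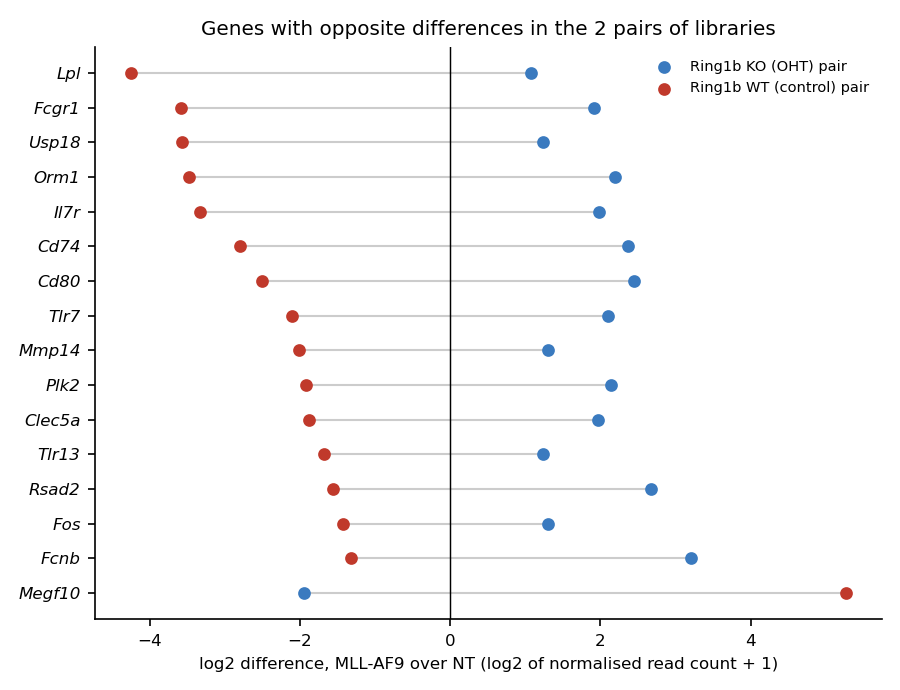
Log2 difference (MLL-AF9 over NT, log2 of normalised read count + 1) of 16 genes in the OHT pair (blue) and the control pair (red) of libraries, 1 library per group and no error bars. For 15 of them, all but Megf10, the value is positive in the OHT pair and negative in the control pair.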

How the data were processed

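Per the labels' protocols, mRNA libraries came from an Illumina TruSeq kit of a type without strand marking. Per the submitters' processing notes, TopHat, DESeq and mm9 were used. No source used here gives the read counter or its annotation. The 8 columns used hold a signal that the authors deposited, the DESeq base mean of each RefSeq transcript, per the file headers. Dividing each column by its lowest value gave whole reads for 100.0% of values (tolerance 0.02), and these steps match size factors computed over the 8 libraries together (largest relative difference 7.9e-10), so the 4 tables share a scale. No column of per-sample values was left unused.

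The difference is log2 of (MLL-AF9 value + 1) over (NT value + 1), which understates the change of low transcripts. Transcripts were counted where the larger value reached 20. Of them 83 lay just inside, at 20.1 to 20.7, and 122 just outside, at 19.0 to 19.9. No count model was fitted, since 1 library a side leaves no spread to estimate. Intervals are exact 95% binomial (Clopper-Pearson) intervals of the recovered reads. Because reads per base level off below about 2, ratios of very abundant transcripts can be compressed. The step from values to calls was tested on simulated data. Alternatives were another pseudocount, other scalings (edgeR 4.0.16 for TMM, R 4.3.3) and other filters.

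For 36 transcripts the symbol was a spreadsheet day number and was restored from the identifier. Current names (19076 transcripts) and lengths (18873) came from the reference annotation. Python 3.11.15, scipy 1.17.1 and matplotlib 3.10.9 were used. The 46 gene lists and the comparison were chosen with earlier results of these data known. Named genes are the 25 largest differences in each direction, the same among values of at least 500, all members of the fusion and HOX programme lists, up to 6 of each other list with the largest differences, and defining markers near the lowest value. Camp, Cebpa, Cpa3, Ctsg, Cd63, Alas2, Hdc, Il13ra1, Mki67, Mpo, Ngp, Osm, S100a8, Spi1, Thbs1, Tpsab1 and Vcam1 fall outside that rule and were chosen after their values were seen, and Rnf2, Ring1 and Cdkn2a are the genes of the genotype labels. Some genes that the rule names are not reported here.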

Additional observations from a re-analysis of the deposited data

Results flagged for a closer look

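Between the OHT and the control libraries, which share no sample, 16 of the genes named were at least 2-fold apart in both pairs of MLL-AF9 and NT libraries but in opposite directions. The rule names 327 counted genes, partly for large differences in the control pair. Over the 10101 transcripts counted in both pairs, 27 of 723 higher and 69 of 1089 lower ones of the control pair went opposite ways. With 1 library per group the difference between the pairs was not tested. Values are log2 differences of MLL-AF9 over NT, the OHT pair first and the control pair after it. For 15 of the 16 the value is positive in the OHT pair.

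Lpl, lipoprotein lipase, had 1.07 and -4.25. Fcgr1, the high-affinity IgG receptor, had 1.91 and -3.58. Cd74, the MHC class II invariant chain, had 2.37 and -2.80, and Cd80, a costimulatory ligand, had 2.45 and -2.51. The RNA sensors Tlr7 and Tlr13 had 2.10 and -2.11, and 1.23 and -1.68. Mmp14, a membrane metalloproteinase, had 1.31 and -2.01.

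The interferon-induced genes Rsad2 and Usp18 had 2.68 and -1.56, and 1.23 and -3.57. Neutrophil granule or lectin genes were Fcnb with 3.20 and -1.32, Orm1 with 2.19 and -3.48, and Clec5a with 1.97 and -1.88. Il7r, a lymphoid cytokine receptor, had 1.98 and -3.33. Fos, an immediate early factor, had 1.30 and -1.43, and the kinase Plk2 had 2.13 and -1.92. Megf10, the engulfment receptor, had -1.94 and 5.27, and it is the gene of the group with a positive value in the control pair. The median of the macrophage list was 0.83 in the OHT pair and -0.65 in the control pair. The part of macrophage content in these values was not tested.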

How the results depend on the processing

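The numbers of transcripts at least 2-fold higher and lower in MLL-AF9 cells, 923 and 1154, were 452 and 638 where the larger value had to reach 100, 1823 and 1945 with no filter, and 324 and 591 at 4-fold. They stayed within 1.5 times under a pseudocount of 10, scaling by total reads, TMM scaling, centring on the median, 1 transcript per symbol, or leaving out transcripts over 0.5 reads per base. Without the transcripts over 0.5 reads per base the median of the late neutrophil list was -2.36, over 7 members, and 8 list medians changed sign, among them neutrophil primary granule genes (-0.58 over 4 members, against 0.16) and dendritic cell and MHC class II genes (-1.31 over 11, against 0.18). Over all alternatives 12 of 46 list medians changed sign, each of them under 2-fold as reported. Of 894 genes, 30 changed sign under another scaling, all at differences of at most 0.03, and with a pseudocount of 10 the differences of 99 lay outside their counting interval. Why these values moved was not tested. The median of all counted transcripts was 0.0276 with total reads, -0.0368 with TMM and 0.10 with no filter. Few reads limit genes near the lowest entry. No library could be left out with 1 a side. No paired analysis was possible because the labels give no replicate numbers and each group has 1 library.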

Other observations

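Several immune signalling groups held both higher and lower members. Of 27 counted interferon response genes 4 were at least 2-fold higher (14.8%) and 3 lower (11.1%) in MLL-AF9 cells. The shares of all counted transcripts were 8.59% and 10.7%, so the lower share is near that of all transcripts. Of the 4, 3 were also 2-fold higher in the OHT pair, and 0 of the 3 lower ones were lower there. Gbp3, an interferon-induced GTPase, counted 193 in MLL-AF9 cells, 261 in HOXA9 cells, 107 in PML-RARa cells and 41.4 in NT cells (2.19, 1.76 to 2.70), and Dhx58, an RNA sensor, 314 in MLL-AF9 cells, 441 in HOXA9 cells, 196 in PML-RARa cells and 117 in NT cells (1.42). Of 21 counted Toll-like receptor and sensing genes 3 were higher (14.3%) and 6 lower (28.6%). In the OHT pair 2 of these 3 were also 2-fold higher, and 0 of the 6 were lower. Of 27 counted Fc and inhibitory receptors 11 were lower (40.7%) and 0 higher, and 6 of the 11 were also 2-fold lower in the OHT pair. Among the 11 were Cd200r4 at 32.8 in MLL-AF9 cells, 343 in HOXA9 cells, 1062 in PML-RARa cells and 977 in NT cells (-4.85, -5.46 to -4.38) and Siglecg at 6.35 in MLL-AF9 cells, 65.6 in HOXA9 cells, 14.4 in PML-RARa cells and 266 in NT cells (-5.18). Cd28, a T cell costimulator, was higher at 143 in MLL-AF9 cells, 187 in HOXA9 cells, 32.5 in PML-RARa cells and 37.2 in NT cells (1.91, 1.44 to 2.46), while 25 of 32 measured T, NK and innate lymphoid genes and 12 of 15 B cell genes were under the minimum of 20.

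Genes of adhesion, matrix and stress varied by gene. Of 15 counted integrin subunits 7 were lower (46.7%) and 0 higher, including Itgb7, of mucosal homing, at 266 in MLL-AF9 cells, 1747 in HOXA9 cells, 2419 in PML-RARa cells and 1258 in NT cells (-2.24, -2.44 to -2.05). Col4a1, a basement membrane collagen, was higher in all 3 transduced libraries at 303 in MLL-AF9 cells, 1588 in HOXA9 cells, 1695 in PML-RARa cells and 45.5 in NT cells (2.71, 2.31 to 3.18), and Cdh1, E-cadherin, stood at 257 in MLL-AF9 cells, 1700.3 in HOXA9 cells, 3570.1 in PML-RARa cells and 671 in NT cells (-1.38). Of 30 counted glycolysis and hypoxia genes 3 were higher (Adm, Aldoc and Pdk1) and 3 lower, with 2000.2 in MLL-AF9 cells, 2094 in HOXA9 cells, 1958 in PML-RARa cells and 946 in NT cells for Pdk1, the kinase that limits pyruvate oxidation (1.08, 0.97 to 1.19). In the BCL2 family, Bcl2l14 was higher at 144 in MLL-AF9 cells, 54.8 in HOXA9 cells, 62.2 in PML-RARa cells and 14.1 in NT cells (3.27, 2.62 to 4.18). Of 29 counted immediate early genes 7 were lower (24.1%) and 3 higher (10.3%, near the 8.59% of all counted transcripts). Spry4, a brake on growth factor signalling, was lower at 12.7 in MLL-AF9 cells, 371 in HOXA9 cells, 714 in PML-RARa cells and 119 in NT cells (-3.13, -4.21 to -2.38).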
